A study of Homo sapiens with 6 samples.

Results

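The mRNA of 60 genes that drive cells through mitosis was compared between 22Rv1-ABHD5 cells grown without and with doxycycline (Dox). The genes were grouped by function, as the mitotic kinases and their partners, the spindle checkpoint, the kinetochore, condensin and the machinery of spindle and cytokinesis. They were chosen with earlier results of these data known, and were taken as the rows of the count table that carry their symbols. All 60 were found among the 27470 genes of the table, SGOL1 and SGOL2 under their current symbols SGO1 and SGO2. 22Rv1 is a human castration-resistant prostate cancer line, and 22Rv1-ABHD5 cells carry an ABHD5 transgene that Dox switches on, delivered by lentivirus in the pInducer20 vector and selected with G418. ABHD5 is a coactivator of the triglyceride lipase ATGL. The 3 libraries labelled Control came from these cells without Dox and the 3 libraries labelled OE from the same cells with Dox, so that both groups carry the transgene. The labels give 48 h of culture. Parent cells treated with Dox were not analysed here, and the effects of ABHD5 and Dox cannot be told apart. Whether the cells are a clone or a pool, and whether the libraries of a group came from separate cultures, is not given in the sources used here, so that p-values measure the spread between these libraries, which may be technical.

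Mitosis is driven by CDK1 bound to cyclin B, which the CDC25 phosphatases switch on. Polo and Aurora kinases act beside it on centrosomes, centromeres and the spindle, and condensin compacts the chromosomes. Kinetochores, built on the centromeric histone CENPA, hold the chromosomes to spindle microtubules, and the spindle checkpoint holds back CDC20 and the anaphase-promoting complex (APC/C) until each kinetochore is attached. Most of these genes are transcribed periodically, in G2 and M phase. Their promoters often carry a cell cycle homology region (CHR) that the DREAM and MYBL2-MuvB complexes bind, together with CCAAT boxes that NF-Y binds, and FOXM1 joins the MuvB complex in G2.

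Promoter windows show these elements in the members. The sequences below are the 250 bases before the gene start, 5′ to 3′ on the strand of the gene, from RefSeq on GRCh38.p14; capitals mark the CHR hexamers TTTGAA and TTCGAA and the CCAAT box, searched on both strands. Other forms of the CHR were not searched, so that a window without these hexamers is not shown to lack a CHR. CCNB2 and PLK1 are shown as genes that fell with Dox and hold a hexamer. CDC20 is shown as a gene that holds hexamers and did not pass the test. KNSTRN fell and CENPE did not pass the test, and both hold neither motif as searched. The windows shown lie at chr15:59104896-59105145 (plus strand), chr16:23678639-23678888 (plus), chr1:43358731-43358980 (plus), chr15:40382471-40382720 (plus) and chr4:103198344-103198593 (minus), in this order. RefSeq starts can differ from those of GENCODE, which gives the gene spans printed elsewhere: the PLK1 window lies inside the GENCODE span of PLK1, and those of CCNB2 and CENPE reach into theirs.
CCNB2: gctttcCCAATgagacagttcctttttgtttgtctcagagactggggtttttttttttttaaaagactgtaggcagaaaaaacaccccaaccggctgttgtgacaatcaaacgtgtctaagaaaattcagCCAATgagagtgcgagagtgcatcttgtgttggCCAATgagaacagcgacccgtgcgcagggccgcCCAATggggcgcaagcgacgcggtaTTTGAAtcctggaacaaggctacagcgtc
PLK1: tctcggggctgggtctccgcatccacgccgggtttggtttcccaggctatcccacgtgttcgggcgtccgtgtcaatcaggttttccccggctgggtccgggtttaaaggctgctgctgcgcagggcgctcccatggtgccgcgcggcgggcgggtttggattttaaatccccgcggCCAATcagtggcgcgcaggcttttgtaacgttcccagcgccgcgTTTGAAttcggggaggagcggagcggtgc
CDC20: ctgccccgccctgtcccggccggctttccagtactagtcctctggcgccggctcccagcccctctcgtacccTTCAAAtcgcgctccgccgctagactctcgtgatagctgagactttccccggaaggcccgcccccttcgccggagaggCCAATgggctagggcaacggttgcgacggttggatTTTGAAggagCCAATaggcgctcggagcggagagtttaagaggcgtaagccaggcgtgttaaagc
KNSTRN: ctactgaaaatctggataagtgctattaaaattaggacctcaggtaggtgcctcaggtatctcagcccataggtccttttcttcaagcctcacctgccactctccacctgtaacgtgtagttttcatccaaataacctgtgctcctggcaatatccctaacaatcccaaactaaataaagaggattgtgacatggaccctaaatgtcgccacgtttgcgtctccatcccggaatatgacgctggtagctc
CENPE: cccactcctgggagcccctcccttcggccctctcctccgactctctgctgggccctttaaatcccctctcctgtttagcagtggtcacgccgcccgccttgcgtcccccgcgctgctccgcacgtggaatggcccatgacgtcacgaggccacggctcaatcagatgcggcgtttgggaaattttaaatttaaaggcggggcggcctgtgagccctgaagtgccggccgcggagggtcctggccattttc

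Positions count from 1 at the first base of the gene and from -1 at the base before it. The hexamer began at position -29 in CCNB2 and in PLK1. CCNB2 held CCAAT boxes at positions -244, -120, -87 and -54, and PLK1 held 1 at position -73. In CDC20, hexamers began at positions -178 and -65 and CCAAT boxes at -100 and -55. RefSeq windows of 300 bases, 250 before and 50 after the start, were given for 50 of the 60 members. A hexamer was present in 38 of these 50 genes (76%), against 19.5% of the 27305 genes with a window. A CCAAT box was present in 38 of the 50 (76%), against 39.7% of all genes. CCAAT boxes spaced by 30 to 35 bases were held by 7 of the 50 (14%), against 2.19%. All genes include those not tested here. Over the genes tested that are not members, the shares were 14.95% for a hexamer, 43.95% for a CCAAT box and 3.35% for spaced boxes. Some genes have several windows. Per window the hexamer was present in 64.6% for the members and 16.3% for all windows. CENPE, KNSTRN and MYBL2 held neither motif as searched. Of the 4 members with a window that did not pass the test described below, 3 held a hexamer. Among genes tested that are not members, 17.3% of the 1388 with a hexamer fell with Dox, and 12.9% of the 7894 without. A match gives the letters in a window and not a bound site.

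**Figure D1:**
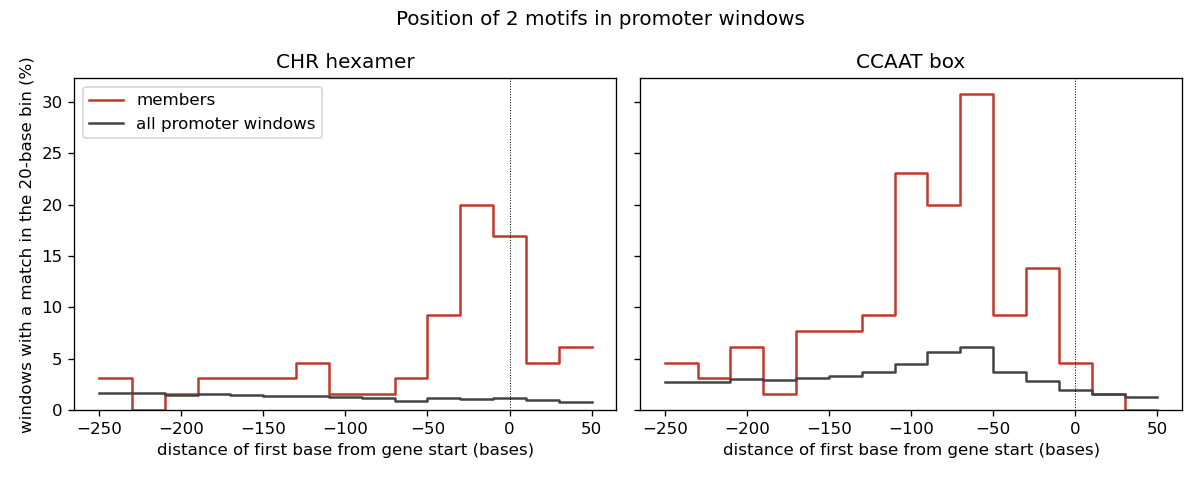
Share of promoter windows (%) in which a CHR hexamer (left) or a CCAAT box (right) begins in each bin of 20 bases, against the distance from the gene start, for the members (65 windows) and for all promoter windows (35116). Member hexamers gather near the start, where 46.2% of the member windows and 4.28% of all windows hold one beginning at positions -60 to 20, a span chosen after the profile was seen.

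The libraries held 3394672 to 7271771 counts on genes, so that 3 counts, taken as the floor of detection, equal 0.413 to 0.884 CPM (counts scaled to 1000000 per library). All members were above it, with at least 13 counts in every library, the lowest being CENPA in replicate 2 with Dox. Among the reads listed, 32.5% to 34.6% without Dox and 35.6% to 39.5% with Dox were assigned to no feature in counting. ABHD5 was 63.2, 57.8 and 62.6 CPM without Dox and 125.4, 130.3 and 91.3 CPM with Dox, a rise of 0.91 on the log2 scale (standard error 0.15) at an adjusted p of 1.98e-04. All 10 prostate luminal markers were detected. In the test described below 6 of them fell with Dox, where 13.7% of all genes tested fell, and their median log2 fold change was -0.59. Of 10 markers of stroma, blood, vessel and basal cells, CD3E, PECAM1, VWF, KRT5 and KRT14 had no count in any library, and COL1A1 alone had enough counts for the test (2.43 CPM without Dox, 5.46 CPM with Dox, adjusted p = 0.0313, and 0.0590 to 0.166 without replicate 1 or 3 with Dox or 2 or 3 without). Their part in the results below was not tested.

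Transcripts of the mitotic machinery were lower with Dox in nearly all members. At an adjusted p under 0.05 (edgeR's quasi-likelihood test over 12233 genes, Benjamini-Hochberg adjustment), 54 of the 60 fell, none rose and 6 did not pass, where 13.7% of all genes tested fell and 11.9% rose. Since the members were chosen with earlier results of these data known, these shares describe the list and do not test it. All 60 passed the filter on low counts. The median log2 fold change of the members was -0.88, a 1.84-fold lower level, and that of all genes tested was 0.016. The smallest difference was that of SMC4 (-0.15) and the largest that of PLK1 (-1.46). A fall of at least 1.5-fold was seen in 49 members, against 8.99% of all genes, and of at least 2-fold in 18, against 3.23%. In 56 members every library with Dox lay below every library without Dox, against 20.5% of all genes. Under 14 other settings, 51 to 57 members fell and none rose. These are levels per total mRNA, and fewer cells in G2 and M phase and less of each mRNA per such cell cannot be told apart.

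The members took 1.09%, 1.12% and 1.13% of all counts on genes without Dox, and 0.689%, 0.750% and 0.601% with Dox. The groups did not overlap, and the mean share was 1.64-fold lower with Dox (1.11% ± 0.018 against 0.680% ± 0.075, SD, n = 3 each).

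**Figure D2:**
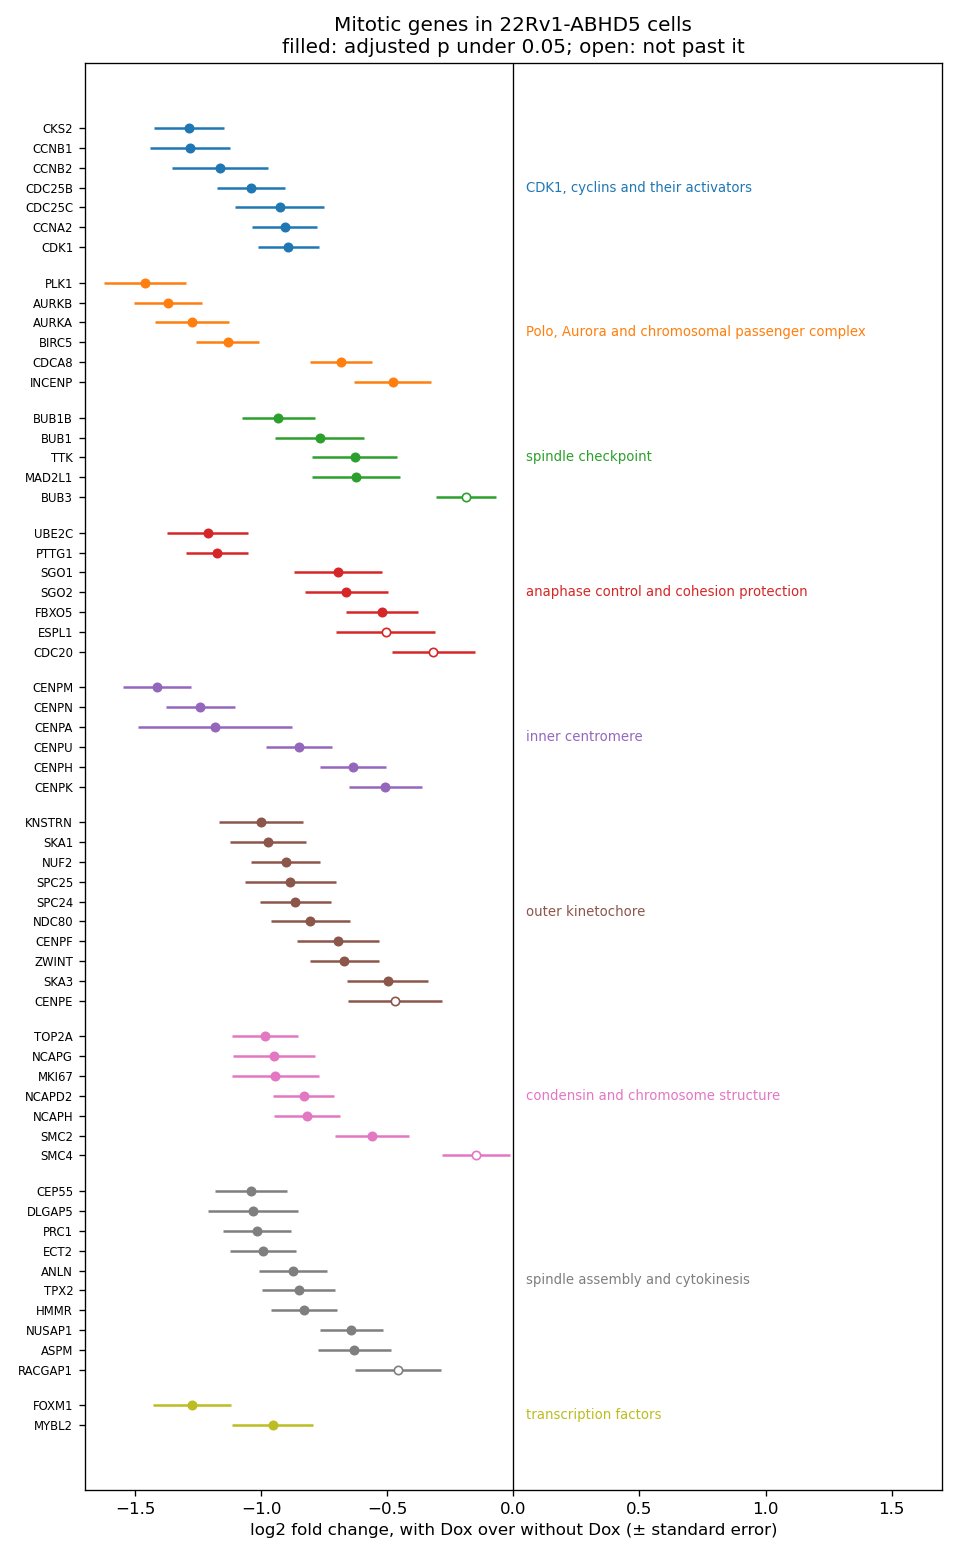
Log2 fold change of each of the 60 mitotic genes (with Dox over without Dox), with the standard error of the fit as bars, grouped by role. Filled points passed an adjusted p of 0.05. All 60 points lie below 0, from -1.46 in PLK1 to -0.15 in SMC4, and the 6 open points are BUB3, ESPL1, CDC20, CENPE, SMC4 and RACGAP1.

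All 7 genes of the CDK1 module fell, with a median log2 fold change of -1.04. CDK1, the mitotic kinase itself (chromosome 10, 60778331 to 60794852, hg38), was 295.1, 274.7 and 318.4 CPM without Dox and 166.4, 147.2 and 164.8 CPM with Dox. CCNB1, its cyclin B1 partner (chromosome 5, 69167135 to 69178245), was 313.6, 350.1 and 253.6 CPM without Dox and 136.1, 144.4 and 97.4 CPM with Dox. In neither gene did the groups overlap. The log2 fold change came to -0.89 for CDK1 (standard error 0.12, adjusted p = 3.77e-05) and -1.28 for CCNB1 (standard error 0.16, adjusted p = 1.26e-05), from edgeR. CKS2, a small subunit that docks CDK1 to its substrates, had the most negative value of the module: 89.8, 81.9 and 92.9 CPM without Dox became 32.1, 37.2 and 39.1 CPM with Dox (log2 fold change -1.29, standard error 0.14, adjusted p = 2.90e-06). CDK1 had the least negative value of the 7. CCNA2, which encodes cyclin A2, was at -0.91, and CCNB2, which encodes cyclin B2, was at -1.17. The CDC25 phosphatases among the members, which remove the inhibitory phosphates of CDK1, were at -1.04 (CDC25B) and -0.93 (CDC25C).

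All 6 genes of the Polo and Aurora kinases and the chromosomal passenger complex fell, and their median of -1.20 was the most negative of the 9 role groups; the order of the groups was not tested. PLK1, the Polo kinase of mitotic entry and centrosome maturation (chromosome 16, 23677656 to 23690367), was 42.4, 51.0 and 52.7 CPM without Dox and 18.4, 18.9 and 16.2 CPM with Dox. Its level with Dox was 2.75-fold lower (log2 fold change -1.46, standard error 0.16, adjusted p = 4.36e-06), the largest fall among the members. AURKB, the catalytic subunit of the chromosomal passenger complex (chromosome 17, 8204733 to 8210600), was 207.1, 195.0 and 154.3 CPM without Dox and 69.3, 73.2 and 72.1 CPM with Dox (log2 fold change -1.37, standard error 0.14, adjusted p = 9.70e-07). The libraries of AURKB with Dox were nearly equal, and the groups were far apart. AURKA, the centrosomal Aurora kinase, had a log2 fold change of -1.27. The other subunits of the passenger complex had less negative fitted values than AURKB: BIRC5 (survivin) was at -1.13, CDCA8 (borealin) at -0.68 and INCENP, the scaffold that binds and activates AURKB, at -0.48. INCENP was 70.5, 76.6 and 56.4 CPM without Dox and 46.4, 55.2 and 44.5 CPM with Dox. These libraries nearly touched, and INCENP (adjusted p = 0.0283) kept its call under 8 of 14 other settings. It lost it without replicate 1 or 3 with Dox (adjusted p of 0.101 and 0.0783) and without replicate 1 or 2 of the untreated cells (0.0953 and 0.116).

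In the spindle checkpoint 4 of 5 genes fell, with a median of -0.63. BUB1B, which encodes the checkpoint inhibitor BUBR1, was 131.4, 131.6 and 124.9 CPM without Dox and 71.7, 79.0 and 54.0 CPM with Dox (log2 fold change -0.93, standard error 0.14, adjusted p = 1.26e-04). BUB1, the kinase that gathers checkpoint proteins at kinetochores, was 71.8, 74.2 and 75.1 CPM without Dox and 47.7, 54.1 and 30.2 CPM with Dox (log2 fold change -0.77, standard error 0.18, adjusted p = 0.00387). The libraries without Dox were nearly equal in BUB1, and replicate 3 with Dox was lower than the other two. TTK, the kinase that starts checkpoint signalling, was at -0.63, and MAD2L1, which encodes the MAD2 protein bound to CDC20 by the checkpoint, at -0.62. MAD2L1 lost its call without replicate 3 of the cells without Dox (adjusted p = 0.0887). BUB3, which binds both BUB1 and BUB1B, did not pass the test. It was 180.3, 192.5 and 195.8 CPM without Dox and 160.1, 173.0 and 166.5 CPM with Dox, so that the groups did not overlap, and its log2 fold change of -0.19 had a standard error of 0.12 (adjusted p = 0.265).

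Genes of anaphase control and of cohesion protection were uneven: 5 of 7 fell, with a median of -0.66. UBE2C, the ubiquitin-conjugating enzyme that works with the APC/C, was 263.6, 176.4 and 209.6 CPM without Dox and 88.4, 77.9 and 112.4 CPM with Dox (log2 fold change -1.21, standard error 0.16, adjusted p = 2.80e-05). CDC20, the APC/C activator on which the checkpoint acts, was 51.0, 59.95 and 59.8 CPM without Dox and 53.5, 33.8 and 48.7 CPM with Dox. In CDC20 replicate 1 with Dox lay inside the range without Dox, and the gene did not pass (log2 fold change -0.32, standard error 0.17, adjusted p = 0.173; 0.114 to 0.473 over the other settings). PTTG1 (securin), which holds separase inactive, had a log2 fold change of -1.18 (adjusted p = 1.70e-06), and ESPL1, which encodes separase, had -0.51 with overlapping groups (adjusted p = 0.0670). ESPL1 passed under 4 of the 14 other settings. Among them were the fits without replicate 3 with Dox (adjusted p = 0.0312) and without replicate 2 of the cells without Dox (adjusted p = 0.03645). The highest adjusted p of ESPL1 over the 14 was 0.315. FBXO5, which encodes the APC/C inhibitor EMI1, was at -0.52. The shugoshins, which protect centromeric cohesion, were at -0.70 (SGO1) and -0.66 (SGO2).

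**Figure D3:**
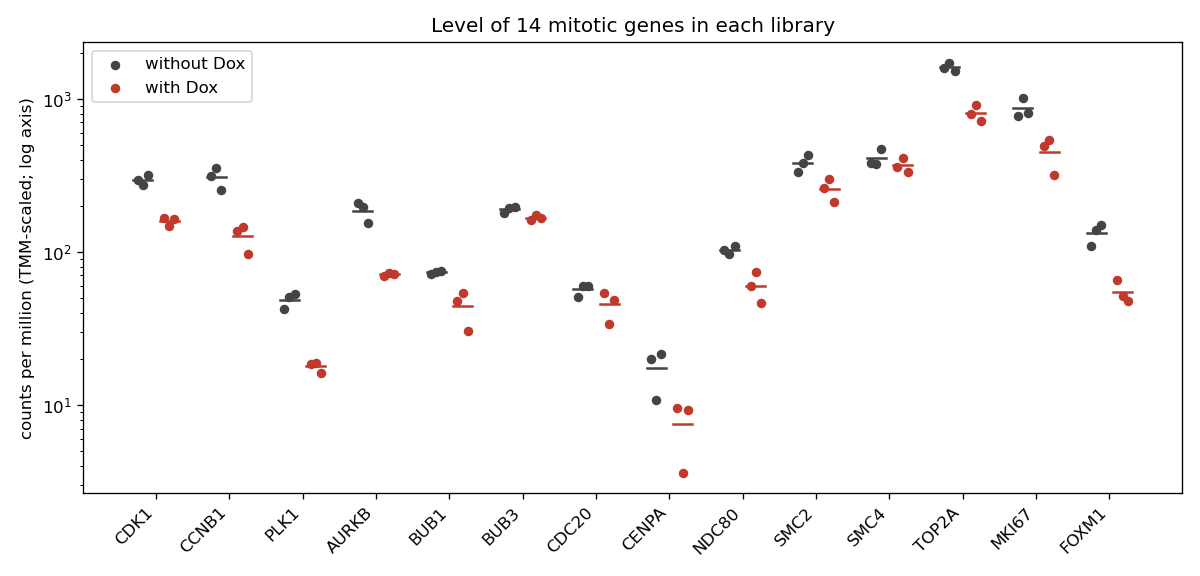
Level of 14 members in each of the 6 libraries, in TMM-scaled CPM on a log axis; points are libraries and bars their means. The points with Dox lie below all points without Dox in each gene shown except CDC20 and SMC4, whose groups overlap, and the BUB3 groups are apart by less than those of PLK1.

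All 6 genes of the inner centromere fell, with a median of -1.02. CENPM, a subunit of the constitutive centromere network, was 84.1, 89.3 and 89.9 CPM without Dox and 31.9, 31.6 and 34.9 CPM with Dox. Its groups were tight and far apart, and it had the smallest adjusted p of the members (log2 fold change -1.41, standard error 0.14, adjusted p = 6.36e-07). CENPA, the histone variant that marks the centromere (chromosome 2, 26764289 to 26801067), was 20.04, 10.8 and 21.4 CPM without Dox and 9.53, 3.60 and 9.29 CPM with Dox. Replicate 2 was the lowest library of CENPA in both groups, yet no library with Dox reached those without, and the standard error was the largest of the members (log2 fold change -1.19, standard error 0.31, adjusted p = 0.00834). CENPN, which reads CENPA in the nucleosome, was at -1.24, CENPU at -0.85 and CENPH at -0.64. CENPK, a partner of CENPH, was 57.8, 58.1 and 66.3 CPM without Dox and 42.3, 48.5 and 38.5 CPM with Dox (log2 fold change -0.51, standard error 0.14, adjusted p = 0.0157), and lost its call without replicate 1 or 3 with Dox (adjusted p of 0.0602 and 0.0542) and without replicate 3 of the untreated cells (0.0754).

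At the outer kinetochore 9 of 10 genes fell, with a median of -0.84. The 4 subunits of the NDC80 complex, which grips microtubules, had log2 fold changes between -0.90 and -0.81: NUF2 at -0.90, SPC25 at -0.89, SPC24 at -0.86 and NDC80 at -0.81. NDC80 (chromosome 18, 2571557 to 2616635) was 102.8, 96.7 and 109.6 CPM without Dox and 59.6, 73.5 and 45.9 CPM with Dox (standard error 0.16, adjusted p = 9.99e-04). All libraries with Dox lay below those without, and replicate 3 was the lowest of them. KNSTRN, which encodes the spindle and kinetochore protein kinastrin, was 81.7, 56.6 and 85.7 CPM without Dox and 42.5, 36.9 and 33.5 CPM with Dox (log2 fold change -1.003, standard error 0.17, adjusted p = 2.54e-04). SKA1 was at -0.97 and SKA3 at -0.50; both encode subunits of the SKA complex, which couples kinetochores to shortening microtubules, and SKA3 lost its call under 7 of the 14 other settings. These include the fits without replicate 1 or 3 with Dox (adjusted p of 0.0744 and 0.0592) and without replicate 2 or 3 of the untreated cells (0.0503 and 0.164). ZWINT, which links the KNL1 part of the kinetochore to further proteins, was at -0.67, and CENPF, a large coiled-coil protein of the corona, at -0.70. CENPE, the kinetochore kinesin, did not pass. It was 171.0, 168.7 and 230.8 CPM without Dox and 120.7, 191.3 and 103.8 CPM with Dox, and replicate 2 with Dox lay inside the range without Dox (log2 fold change -0.47, standard error 0.19, adjusted p = 0.0756). Without that library the log2 fold change of CENPE was -0.77 and the adjusted p 9.37e-04. With another library left out the log2 fold change was -0.30. CENPE passed under 3 of the 14 other settings, and its adjusted p reached 0.308 among them all.

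Of 7 genes of condensin and chromosome structure 6 fell, with a median of -0.83. TOP2A, the topoisomerase that untangles sister chromatids (chromosome 17, 40388525 to 40417896), was 1588, 1713 and 1507 CPM without Dox and 799.4, 909.9 and 720.0 CPM with Dox (log2 fold change -0.99, standard error 0.13, adjusted p = 2.88e-05). MKI67, the proliferation marker Ki-67 that coats mitotic chromosomes, was 765.1, 1015 and 810.1 CPM without Dox and 493.5, 537.9 and 317.1 CPM with Dox (log2 fold change -0.94, standard error 0.17, adjusted p = 6.02e-04). Neither gene had groups that overlapped. The non-SMC subunits of condensin I were at -0.95 (NCAPG), -0.83 (NCAPD2) and -0.82 (NCAPH), and all 3 fell. The SMC ATPases, which both condensin complexes share, had less negative fitted values. SMC2 was 329.7, 378.9 and 429.4 CPM without Dox and 262.8, 299.1 and 211.3 CPM with Dox (log2 fold change -0.56, standard error 0.15, adjusted p = 0.00852). SMC4 was 382.0, 372.7 and 465.9 CPM without Dox and 358.3, 412.5 and 332.6 CPM with Dox. The groups of SMC4 overlapped and it did not pass (log2 fold change -0.15, standard error 0.13, adjusted p = 0.455).

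Of 10 genes of spindle assembly and cytokinesis 9 fell, with a median of -0.86. CEP55, which recruits the abscission machinery to the midbody, was 102.3, 105.7 and 97.9 CPM without Dox and 49.4, 58.5 and 41.7 CPM with Dox (log2 fold change -1.04, standard error 0.14, adjusted p = 3.57e-05). PRC1, which bundles the microtubules of the central spindle, was at -1.02 and ECT2, the exchange factor that activates RhoA at the cleavage site, at -0.99. RACGAP1, which binds ECT2 at the central spindle, did not pass: it was 56.2, 50.1 and 65.9 CPM without Dox and 46.4, 31.1 and 47.4 CPM with Dox. The groups of RACGAP1 did not overlap (log2 fold change -0.46, standard error 0.17, adjusted p = 0.0571), and it passed under 4 of the 14 other settings. Among them were the fits without replicate 3 with Dox (adjusted p = 0.0306) and without replicate 2 of the cells without Dox (adjusted p = 0.04025). The highest adjusted p of RACGAP1 over the 14 was 0.216. ANLN (anillin), a scaffold of the contractile ring, was at -0.87. The spindle assembly factors TPX2, which activates AURKA, HMMR, NUSAP1 and DLGAP5 were at -0.85, -0.83, -0.64 and -1.03, and ASPM, which acts at spindle poles, at -0.63; all 5 fell.

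Both transcription factors of the G2/M programme fell. FOXM1 (chromosome 12, 2857680 to 2877174) was 108.8, 138.1 and 149.7 CPM without Dox and 65.4, 51.6 and 47.6 CPM with Dox (log2 fold change -1.28, standard error 0.15, adjusted p = 1.05e-05). MYBL2, which encodes B-MYB, was 140.3, 123.9 and 86.4 CPM without Dox and 57.8, 64.0 and 58.5 CPM with Dox (log2 fold change -0.95, standard error 0.16, adjusted p = 2.78e-04). In each gene all libraries with Dox lay below those without Dox, and in MYBL2 the libraries without Dox were spread more widely than those with Dox.

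Whether partners fell by unequal amounts was read from the log2 ratio of their counts within each library, which does not depend on the scaling of the library. Of 10 pairs, 4 had ratios that did not overlap between the groups. Of all single genes tested, 20.5% did not overlap with Dox below and 19% with Dox above. Levels of single genes are an unlike measure, and no share over other pairs was taken. The ratio of CDC20 to UBE2C was -2.37, -1.56 and -1.81 without Dox and -0.72, -1.20 and -1.21 with Dox, a difference of 0.87 (standard error 0.29). The ratio of CDC20 to UBE2C was higher in each library with Dox. The ratio of SMC2 to SMC4 was -0.21, 0.024 and -0.12 without Dox and -0.45, -0.46 and -0.65 with Dox, a difference of -0.42 (standard error 0.096). The ratio of BUB1 to BUB3 was -1.33, -1.37 and -1.38 without Dox and -1.75, -1.68 and -2.46 with Dox, a difference of -0.60 (standard error 0.25), which was -0.35 without replicate 3 with Dox. In each library with Dox, SMC2 relative to SMC4 and BUB1 relative to BUB3 were lower than in any library without Dox. The ratio of CDC25B to CDC25C differed by -0.12 (standard error 0.055), and by -0.064 without replicate 2 with Dox. For each of these 4 the exact two-sided permutation test gave p = 0.1, the smallest that 3 libraries against 3 allow, and an adjusted p of 0.25 over the 10 pairs, so that none of the differences passed a threshold of 0.05.

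The other 6 pairs overlapped between the groups. The ratio of CCNB1 to CCNB2 differed by -0.06 (standard error 0.49), AURKA to AURKB by 0.09 (standard error 0.23), SGO1 to SGO2 by -0.03 (standard error 0.18) and NCAPG to NCAPD2 by -0.13 (standard error 0.24). BUB1 to BUB1B differed by 0.15 (standard error 0.099) and CDK1 to CCNB1 by 0.39 (standard error 0.29). The exact p of these pairs lay between 0.3 and 1.0. Equal changes are not shown by these values, since the standard error of CCNB1 to CCNB2 alone leaves room for differences of either sign.

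**Figure D4:**
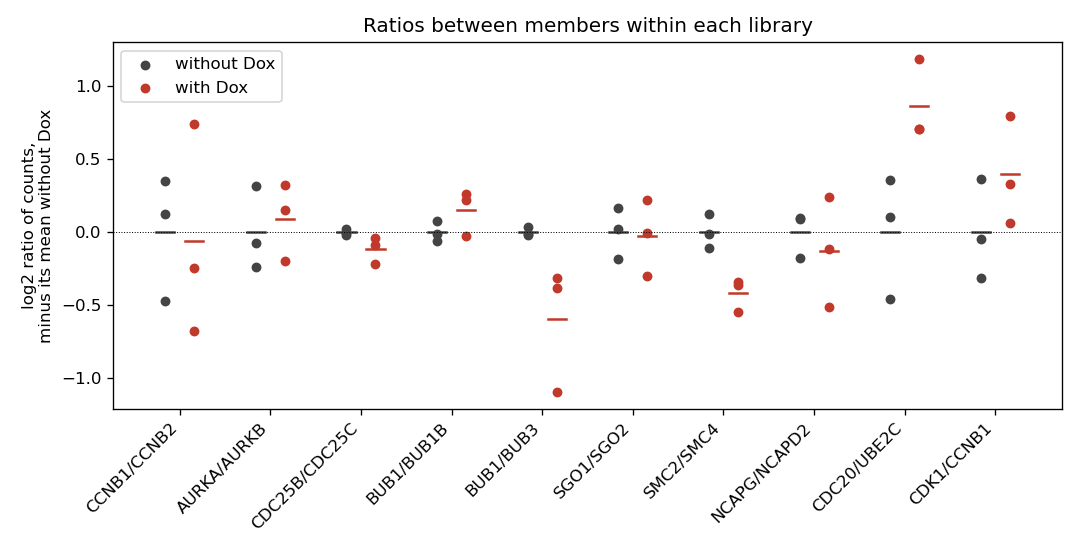
Log2 ratio of the counts of 2 members in each library, after the mean of the libraries without Dox was taken off, for 10 pairs; points are libraries and short lines their means. The points with Dox lie wholly to one side of those without Dox for CDC25B/CDC25C, BUB1/BUB3, SMC2/SMC4 and CDC20/UBE2C.

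The libraries with Dox were less alike in these genes than those without. The range over the 3 libraries had a median of 0.22 on the log2 scale without Dox and 0.41 with Dox, and reached 1.40 in CENPA with Dox. No such range was taken over all genes, so that whether the wider spread is particular to the members was not tested. Of the 60 members, 35 were lowest in replicate 3, 19 in replicate 2 and 6 in replicate 1 of the cells with Dox. Of all genes tested, 34.2%, 38.4% and 27.5% were lowest in these libraries. The libraries without Dox were split as unevenly, with 36 members highest in replicate 3, 16 in replicate 2 and 8 in replicate 1. The matching shares over all genes were not taken for these libraries. The median change of the members from their mean without Dox was -0.78, -0.74 and -1.02 in replicates 1, 2 and 3 with Dox, so that the lower level was present in each library. ABHD5 was 91.3 CPM in replicate 3, the lowest of the libraries with Dox, and that library had the most counts (7271771). The members most unlike between these libraries split into those lowest in replicate 3, such as DLGAP5, BUB1, CENPF and MKI67, and those lowest in replicate 2, such as CENPA and CCNB2. CCNB2 was 39.9, 21.4 and 38.6 CPM with Dox. Without replicate 3 with Dox, 53 members fell and the median was -0.77. Without replicate 2 with Dox, 55 fell and the median was -0.95.

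The kit read the 3′ ends of transcripts, and the use of strand in counting is not stated. Of the 60 members, 22 overlap another gene of the table and 11 have their 3′ end inside one. SMC4 ends inside TRIM59, which is on the opposite strand and itself fell (log2 fold change -0.53, adjusted p = 0.0100), and CCNA2 inside EXOSC9 (log2 fold change -0.31, adjusted p = 0.143). For these members the reads of the 2 genes cannot be told apart. The genes that hold the 3′ ends of PLK1 (ERN2), BUB1B (PAK6 and BUB1B-PAK6), HMMR (HMMR-AS1) and RACGAP1 (AQP6) had at most 5 counts in any library.

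Other genes of mitosis outside the 60 were read from 7 lists by function, also chosen with earlier results of these data known. Over these lists, 56 of 118 genes tested fell and 7 rose, with a median of -0.41, where 13.7% of all genes tested fell and 11.9% rose. Of further G2/M periodic genes 26 of 27 fell, with a median of -0.86, and the smallest adjusted p was that of LMNB1, which encodes lamin B1 (293.9 to 118.7 CPM, log2 fold change -1.31, adjusted p = 4.83e-07). The 3 subunits particular to condensin II all fell, NCAPD3 by 1.03 on the log2 scale. Of the remaining centromere and kinetochore genes 14 of 26 fell and 2 rose, with a median of -0.47; among those that fell HJURP, the chaperone that loads CENPA, had the smallest adjusted p (log2 fold change -1.12, adjusted p = 4.18e-06).

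In the remaining lists of mitotic genes a smaller share passed the test. Of the APC/C core and its activators 3 of 15 genes tested fell and none rose, with a median of 0.050, and ANAPC11, the RING subunit, had the smallest adjusted p (log2 fold change -0.64, adjusted p = 9.15e-04). Of cohesin and its loaders 4 of 13 fell, with the smallest adjusted p in STAG1 (log2 fold change -0.70, adjusted p = 0.00481), and MAU2, a cohesin loader, rose (0.65, adjusted p = 0.0251). MAU2 lost its call without replicate 1 or 3 with Dox (adjusted p of 0.0821 and 0.132) and without replicate 1 or 2 of the untreated cells (0.0899 and 0.0801). Of CDK1 inhibitors and mitotic phosphatases 3 of 21 fell and 2 rose, with a median of -0.014, close to the shares over all genes tested (13.7% and 11.9%). CKS1B, a close relative of CKS2 placed in this list, fell (log2 fold change -1.10, adjusted p = 2.27e-05) and PPP2R5B, a regulatory subunit of the phosphatase PP2A, rose (log2 fold change 1.58, adjusted p = 3.48e-05). CDC25A and MASTL, also placed in this list and, like CKS1B, not CDK1 inhibitors, fell as well. Their log2 fold changes were -1.04 (adjusted p = 1.82e-04) and -0.90 (adjusted p = 2.58e-04). The kinase WEE1, which restrains CDK1, did not pass (log2 fold change -0.26, adjusted p = 0.197), and PKMYT1 was not tested. Of DREAM and MuvB subunits 3 of 13 fell and 2 rose, with a median of -0.27. RBL1 (p107) was at -0.64 (adjusted p = 0.0126; 0.0567 without replicate 3 with Dox), and TFDP2, a dimer partner of E2F factors, at 0.63 (adjusted p = 0.00216). RBL2 (p130), named after its value was seen, was at 0.44 (adjusted p = 0.0277). CDKN1A, a CDK inhibitor in no list and also named after its value was seen, was 135.1, 144.6 and 146.8 CPM without Dox and 223.4, 213.5 and 244.3 CPM with Dox (log2 fold change 0.68, adjusted p = 4.73e-04). As a reference outside mitosis, 13 of 15 S phase genes fell, with a median of -0.76, and the smallest adjusted p was that of RRM1, a subunit of ribonucleotide reductase (log2 fold change -0.91, adjusted p = 3.17e-05).

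**Figure D5:**
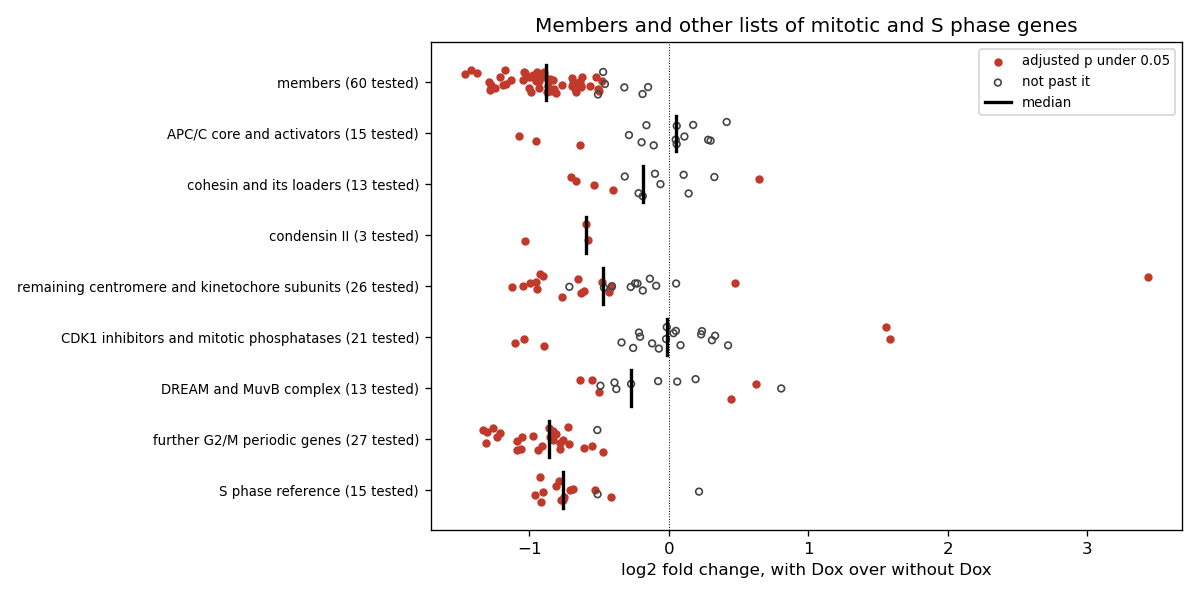
Log2 fold change (with Dox over without Dox) of the members, of 7 other lists of mitotic genes and of an S phase list; each point is a gene, filled where the adjusted p was under 0.05, and bars are list medians. The medians of the members (-0.88), the further G2/M genes (-0.86) and the S phase genes (-0.76) lie well below 0, while those of the APC/C (0.050) and of the CDK1 inhibitors and phosphatases (-0.014) lie near it, and the point at 3.43 is CENPT.

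CENPT, which joins the centromere to the outer kinetochore, rose. It had 44, 36 and 70 counts without Dox and 421, 549 and 1034 counts with Dox, 10.8-fold higher in CPM (log2 fold change 3.43, standard error 0.20, adjusted p = 9.51e-10). On chromosome 16 the gene (67828157 to 67847811, minus strand) holds THAP11 on the opposite strand, whose counts fell from 192, 158 and 405 to 56, 40 and 120 (log2 fold change -2.10, adjusted p = 4.36e-07). The 3′ end of CENPT lies inside TSNAXIP1, which had at most 23 counts in a library, and its 5′ end overlaps NUTF2 (log2 fold change 0.65, adjusted p = 0.00652). Whether reads of one gene were counted on another was not tested.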

How the data were processed

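RNA of 22Rv1-ABHD5 cells, in 3 libraries without and 3 with Dox, was sequenced from the 3′ end with a Lexogen QuantSeq kit (FWD in the labels, REV in the study's methods) as 100 bp single-end reads. The submitters' processing notes name CASAVA 1.8.2, FastQC, STAR, HTSeq, edgeR and hg38; which annotation was used, and whether reads were counted by strand, is not given in the sources used here. The authors deposited raw counts per gene for all 6 libraries and, per library, a normalized signal whose scaling is not stated. The counts were used throughout and the signal only as an alternative (limma 3.58.1 on log2(signal + 1)); 27 names that differed between these files were left out of it. Rows that name no gene (32.5% to 39.5% no feature and 3.05% to 3.37% ambiguous, of the reads listed) entered neither library sizes nor tests.

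Library totals were 3394672 to 7271771 counts, with a floor of 3 counts; reads carry no molecular identifiers, so that the floor covers counting error only. Counts were tested with edgeR 4.0.16 in R 4.3.3 (TMM, filterByExpr, quasi-likelihood test, adjusted p under 0.05 over 12233 genes). Standard errors were derived from the log2 fold change and its F statistic. CPM are TMM-scaled, and levels are not compared between genes. Pair ratios used counts plus 0.5 and an exact permutation test (scipy 1.17.1). Alternatives were DESeq2 1.42.0, other normalizations and filters, a replicate block, the deposited signal and the omission of each library. The deviations of same-numbered libraries correlated with r of -0.011, 0.25 and 0.086, and no source says that a number marks a shared culture, so that the numbers were not taken as pairs.

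Members, lists, pairs and role groups were chosen with earlier results of these data known. All members that did not pass are named. Values in every library are given for 13 members chosen by role and for the most and least negative log2 fold change in each of 9 role groups, and each other list is represented by its gene of smallest adjusted p among those that rose and among those that fell; other genes were named after their values were seen. Some genes covered by this rule or by an overlap are not reported here. Coordinates of genes are those of GENCODE 44 on hg38. Promoter windows are those of RefSeq (GRCh38.p14), with 50 members matched by symbol.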

Additional observations from a re-analysis of the deposited data

How the results depend on the processing

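The members' direction held in all 14 other settings: 51 to 55 fell with a library left out and 51 to 57 otherwise, none rose, and the median log2 fold change was -0.95 to -0.77 and -0.89 to -0.76. Of the 54 that fell, 50 kept direction and call in all 14; INCENP, SKA3, CENPK and MAD2L1 lost the call in at least 1. BUB3, SMC4 and CDC20 passed in none. ABHD5 kept its call (0.81 to 1.06). Genes called were 2181 to 3112 with a library left out, and between 2616 (DESeq2) and 3539 (replicate block) otherwise. In the other mitotic lists 7 genes rose, 12 under library totals alone and 4 to 8 with a library left out (4 without replicate 1 of the cells without Dox); the cause was not tested. Library totals alone moved the median of all genes from 0.016 to 0.137 and gave 1140 lower and 2167 higher calls, 65.5% of them higher against 46.4%, and 51 members still fell.

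With a replicate block 57 members fell (54 without it), ESPL1, CENPE and RACGAP1 passing as well; the pairing of the numbers has no source, and the block gave no other change of call among the members. With a library left out, the pair differences of CCNB1/CCNB2 ran from -0.46 to 0.25, of AURKA/AURKB from -0.030 to 0.25, of SGO1/SGO2 from -0.15 to 0.11 and of NCAPG/NCAPD2 from -0.31 to 0.063, each of which changed sign; the other 6 pairs kept their sign (CDC25B/CDC25C -0.15 to -0.064, BUB1/BUB3 -0.74 to -0.35, SMC2/SMC4 -0.47 to -0.35, CDC20/UBE2C 0.64 to 1.04, BUB1/BUB1B 0.097 to 0.24, CDK1/CCNB1 0.20 to 0.58). MAU2, RBL1 and COL1A1 lost their calls under 5, 1 and 6 settings. With 3 libraries a group the exact tests of the ratios cannot pass 0.05.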
